A study of Mus musculus with 6 samples.

Results

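The chemokines described here are 10 genes of the CC and CXC families, Cxcl1, Cxcl2, Cxcl9, Cxcl10, Cxcl12, Ccl2, Ccl4, Ccl5, Ccl6 and Ccl9, measured in mouse liver after bile duct ligation (BDL). All probe sets that the platform annotation names for one of these genes were taken, which gave 13 of the 12488 probe sets on the array, and the 10 genes are among 8252 genes named there. Cxcl1 had 2 probe sets, Cxcl12 had 3 and each other gene had 1. A probe set is a group of short oligonucleotides that are read together and assigned to a gene by the annotation. The injured group was 3 wild-type male C57BL/6J mice in which the common bile duct had been ligated and cut 1 day earlier under methoxyflurane, which blocks the outflow of bile. The controls were 3 wild-type male C57BL/6J mice taken 1 day after a sham laparotomy without ligation. The mice were 8 to 10 weeks old, per the labels, and each array held the liver RNA of 1 mouse. Replicate numbers in the labels are 1, 12 and 3 for BDL and 1, 2 and 3 for sham.

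Chemokines are small secreted proteins that steer leukocytes along concentration gradients by binding receptors coupled to G proteins. The CC and CXC families are named for whether the leading cysteines are adjacent or separated by another residue. In liver they come from resident macrophages (Kupffer cells), endothelial and stellate cells, bile duct epithelium and hepatocytes. Many of their genes are switched on by the transcription factor NF-kappaB after signals such as tumour necrosis factor or bacterial products, and Cxcl9 and Cxcl10 also by interferons. Obstruction of the bile duct is known to be followed by recruitment of neutrophils and monocytes into the liver.

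The stretches of DNA just upstream of Cxcl1, Cxcl2 and Cxcl10 are shown because these 3 genes carry matches to the kappa-B consensus, the letters that NF-kappaB binds, and because Cxcl1 and Cxcl2 share theirs. Sequences are the RefSeq promoters of GRCm38.p6, read 5′ to 3′ on the strand of the gene over the 250 bases before the annotated start site. Cxcl1 is at chr5:90890995-90891244 on the plus strand, Cxcl2 at chr5:90903649-90903898 on the plus strand and Cxcl10 at chr5:92348890-92349139 on the minus strand. Capitals mark matches to the kappa-B consensus, or in Cxcl10 also the first capital stretch, GAAAGTGAAA, which matches the core of the interferon-stimulated response element (GAAA, 2 bases of any kind, then GAAA).
Cxcl1: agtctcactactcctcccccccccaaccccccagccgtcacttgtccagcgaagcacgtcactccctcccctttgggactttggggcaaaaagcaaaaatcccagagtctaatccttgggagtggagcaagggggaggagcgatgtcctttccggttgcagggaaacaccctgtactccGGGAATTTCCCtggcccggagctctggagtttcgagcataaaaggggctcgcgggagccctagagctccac
Cxcl2: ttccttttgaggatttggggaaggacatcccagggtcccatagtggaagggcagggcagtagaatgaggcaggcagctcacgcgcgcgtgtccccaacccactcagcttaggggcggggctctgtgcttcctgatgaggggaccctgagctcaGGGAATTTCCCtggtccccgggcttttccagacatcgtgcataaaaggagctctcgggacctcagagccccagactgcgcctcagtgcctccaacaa
Cxcl10: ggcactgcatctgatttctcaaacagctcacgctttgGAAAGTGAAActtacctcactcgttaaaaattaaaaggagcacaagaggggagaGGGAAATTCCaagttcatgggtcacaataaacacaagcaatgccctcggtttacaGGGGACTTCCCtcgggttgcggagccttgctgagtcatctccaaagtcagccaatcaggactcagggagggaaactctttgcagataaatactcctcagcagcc

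Cxcl1 and Cxcl2, which are neighbours on chromosome 5 with 0 annotated genes between them, share the same 11-base stretch, GGGAATTTCCC, in which kappa-B matches on the 2 strands overlap. It begins 71 bases before the start site of Cxcl1 and 97 bases before that of Cxcl2. This stretch was present on either strand in 14 of 32851 promoters of the same length, or 0.0426%. Cxcl10 had kappa-B matches beginning 159, 104 and 103 bases upstream, the last with an overlapping match on the other strand, and the interferon element core beginning 213 bases upstream. Promoter sequences were found for 7 of the 10 genes. Of these, 4 held a kappa-B match (Cxcl1, Cxcl2, Cxcl10 and Ccl9), 1 the interferon element core (Cxcl10) and 2 the letters TATAAA (Cxcl9 and Ccl9). Over all promoters, 7.25% held a kappa-B match, 2.98% the interferon element core and 12.4% the TATAAA letters, each searched on both strands. A match describes the letters and does not show binding in these livers.

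**Figure D1:**
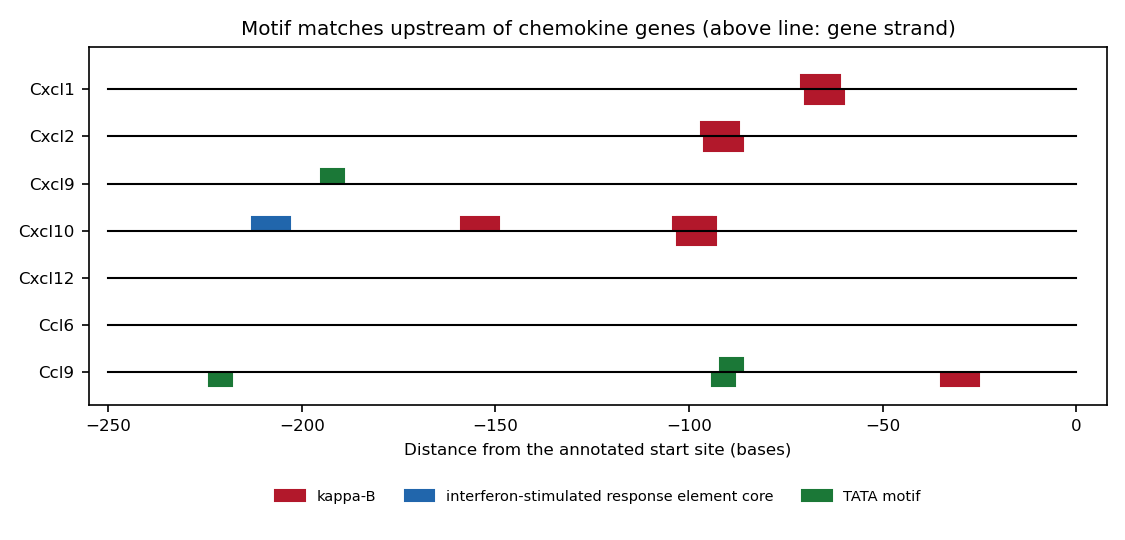
Motif matches in the 250 bases before the start site of the 7 chemokine genes with a promoter sequence. The x axis is the distance from the annotated start site in bases, boxes above a line lie on the strand of the gene and boxes below it on the other strand, and colour gives the motif. Cxcl1 and Cxcl2 each hold 1 overlapping pair of kappa-B matches, and Cxcl12 and Ccl6 hold none of the 3 motifs.

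Signals are the deposited intensities, on a linear scale, and their 2% trimmed mean was 1501 on every array. The 25th percentile of all deposited values, 152.7, served as a floor: any smaller signal was raised to it before log2 was taken. Differences of dim probe sets are thus understated, and so is their spread within a group. Sham replicate 1 stood apart at low signals, with 12.5% of its values at or under the floor, against 24.5% to 31.3% on the other arrays. Where leaving it out turned the sign of a printed difference or moved it by over 1.5 times, the difference without it is given as well. The liver label held for the hepatocyte gene Alb, albumin, whose signals were 147870.3 to 199675 for BDL and 125084 to 170913 for sham. The number of arrays limits the precision.

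Of the 10 chemokines, Cxcl2 was the 1 gene with all 3 BDL signals above all 3 sham signals, and Ccl4 the 1 gene with all 3 BDL signals below them. Ccl2 was far above the sham signals in 2 of 3 BDL mice and under the floor in the other. Cxcl1, the chemokine that shares its kappa-B stretch with Cxcl2, varied widely within both groups. No member probe set passed limma's Benjamini-Hochberg adjusted p of 0.05 over all 9542 tested probe sets, and neither did any other probe set (0% called, lowest adjusted p = 0.667). Of the 13 chemokine probe sets, 11 were tested. Ccl2 and Ccl5 were not, because fewer than 3 of 6 arrays were above the floor. At an unadjusted p under 0.05, 2 of the 11 were counted, Cxcl2 and Ccl4, against 5.78% of all tested probe sets (3.4% higher and 2.39% lower in BDL). Groups were apart for the same 2 probe sets, against 10.6% of all tested probe sets (6.32% with BDL above sham and 4.32% with BDL below). Of the 11, 8 had a positive difference, against 48.8% of all tested probe sets. Cxcl2 and Cxcl10 would have passed the filter on their BDL signals alone and Ccl4 on its sham signals alone, so these counts are descriptions. The median log2 difference, BDL minus sham, was 0.20 over the 13 probe sets and -0.02 over all 12422 probe sets other than controls. The second of these was 0 without sham replicate 1. The first was not stable: it was 0.59 without sham replicate 1, -0.21 without sham replicate 2 and -0.12 without BDL replicate 3. Its sign thus rests on single arrays.

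**Figure D2:**
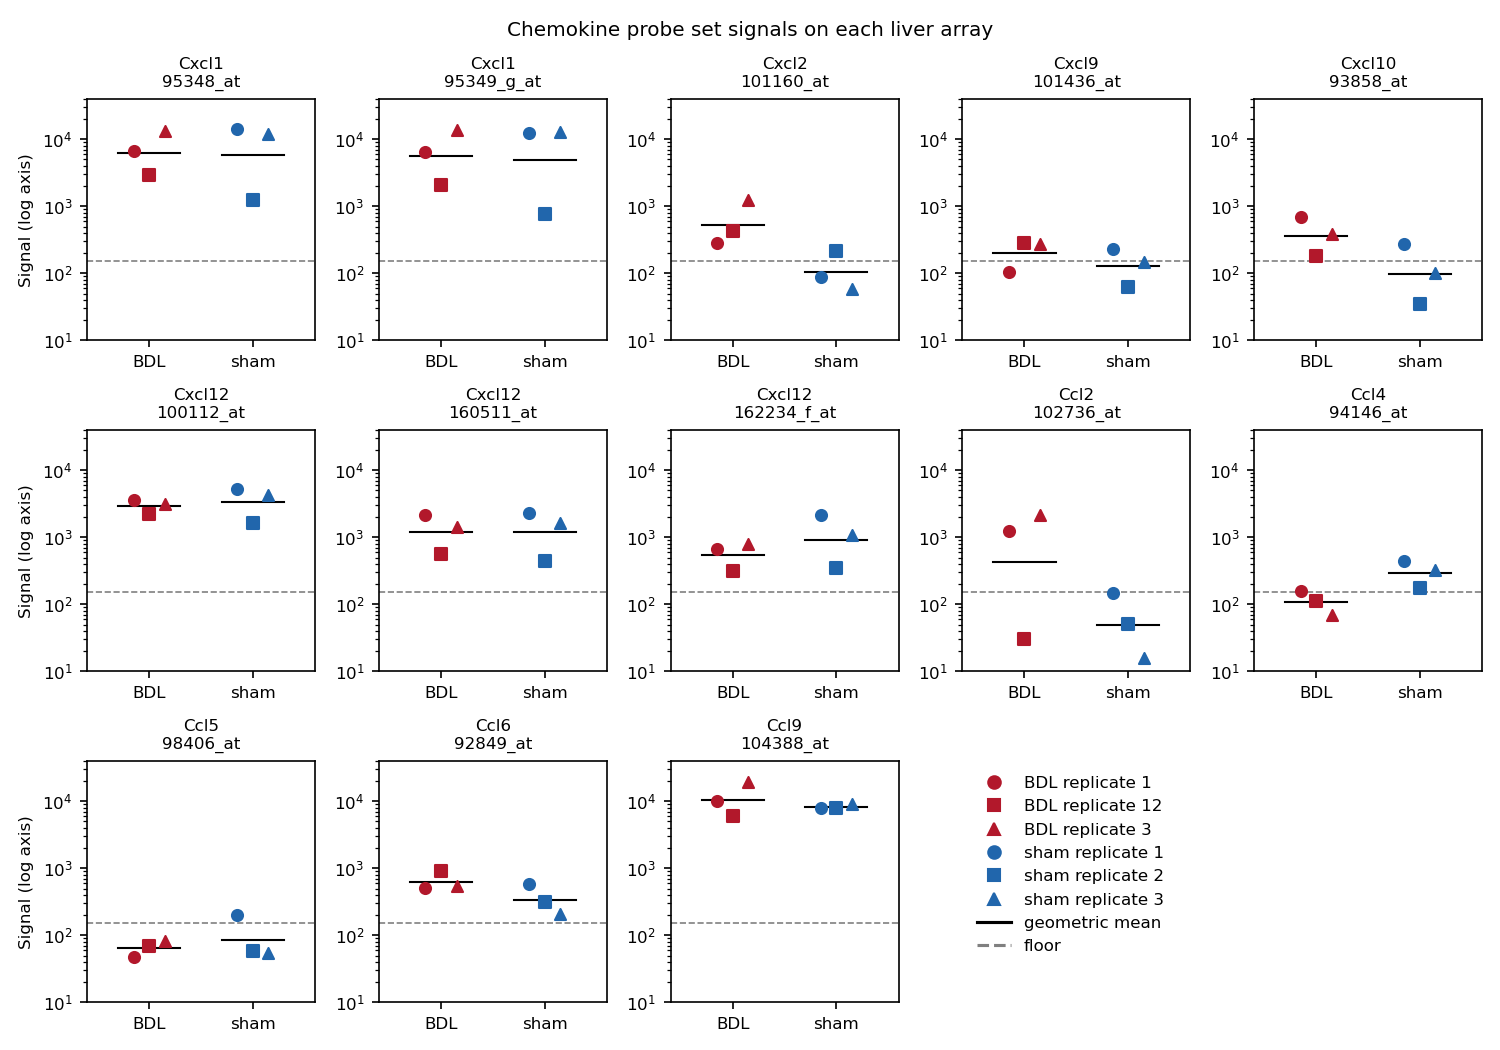
Signal of each of the 13 chemokine probe sets on each array, on a log axis, with BDL mice in red and sham mice in blue. Points are single mice, black lines the geometric mean of the deposited signals of each group and dashed lines the floor of 152.7. The Cxcl2 groups are apart, the Ccl2 signal of BDL replicate 12 lies among the sham signals, and Cxcl1 and Cxcl12 overlap fully.

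Cxcl2, also called MIP-2, attracts neutrophils through the receptor Cxcr2. Its signals were 279.6, 433.9 and 1227 in BDL replicates 1, 12 and 3, against 86.9, 217.1 and 58.2 in sham replicates 1, 2 and 3. BDL replicate 3 was the highest, sham replicates 1 and 3 were under the floor, and the groups did not overlap. The log2 difference was 1.63 (SE 0.52, 95% interval 0.45 to 2.80), or 3.09-fold on floored signals, with a limma unadjusted p of 0.0123 and an adjusted p of 0.832. In bulk liver RNA, a different number of cells of a type and a different amount of RNA per cell cannot be told apart. Without sham replicate 1 the difference was 1.54, and without BDL replicate 3 it was 1.02.

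Cxcl1, or KC, is the other neutrophil attractant of the 10 and also acts through Cxcr2. With probe set 95348_at its signals were 6660.3, 2908 and 13179.7 in BDL replicates 1, 12 and 3, against 14006, 1248 and 11898 in sham replicates 1, 2 and 3. With probe set 95349_g_at they were 6550.3, 2070.2 and 13798 in BDL mice, against 12468, 764.7 and 12819 in sham mice. Both probe sets put sham replicate 2 lowest and BDL replicate 12 next, and 2 of 3 sham mice were as high as the highest BDL mouse or nearly so. The annotation ties both probe sets to the same sequence entry, so their likeness is not independent. The groups overlapped, and the log2 differences were 0.10 (SE 0.92) and 0.20 (SE 1.10), with limma adjusted p of 0.990 and 0.983. The 95% intervals ran from -1.98 to 2.18 and from -2.29 to 2.70. Leaving out sham replicate 2 turned the differences to -1.03 and -1.14, leaving out BDL replicate 3 turned both to -0.43, and leaving out sham replicate 1 gave 0.72 and 0.87.

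The receptor of these chemokines, Cxcr2, had signals of 186.6, 312.1 and 168 in BDL mice, against 359.2, 249.6 and 33.3 in sham mice, and its log2 difference was -0.16 (SE 0.40), which turned to 0.13 without sham replicate 1. Of 15 neutrophil markers on the array, among which Cxcr2 itself was counted, 12 were tested and 4 of these differed positively. By limma's unadjusted p under 0.05, 1 was counted as higher and 0 as lower, and the median difference was -0.11. Their summed signals ranged from 6941 to 9737 in BDL and from 5532 to 13530 in sham mice, highest on sham replicate 1. The marker S100a9, a calcium-binding protein abundant in neutrophils, had signals of 584.9, 304.1 and 1782 in BDL mice, against 191.5, 239.2 and 311.3 in sham mice, with a log2 difference of 1.49 (SE 0.59). Elane, neutrophil elastase, differed by -0.74 (SE 0.39), and by -0.38 without sham replicate 1. Mmp8, Mmp9 and Ncf1 were above the floor on at most 2 arrays. Without sham replicate 1 the median difference of these markers was 0.12, with 10 of 12 positive and 0 at an unadjusted p under 0.05 by limma. Their part in the Cxcl2 values was not tested.

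Cxcl9 and Cxcl10 bind Cxcr3 on activated T cells and natural killer cells and are classical products of interferon-stimulated cells. Cxcl10, or IP-10, had signals of 693.6, 183.8 and 387.1 in BDL replicates 1, 12 and 3, against 272.6, 34.4 and 99.9 in sham replicates 1, 2 and 3. All BDL mice were above the floor and 1 of 3 sham mice was, but BDL replicate 12 lay below sham replicate 1 and the groups overlapped through sham replicate 1. The log2 difference was 0.99 (SE 0.50), or 1.98-fold on floored signals, with a limma adjusted p of 0.832 and an unadjusted p of 0.0796. Cxcl9, or MIG, had signals of 105, 285.9 and 277.7 in BDL mice, against 230, 61.6 and 148.3 in sham mice. These lay close to the floor in both groups, which overlapped, and the log2 difference was 0.39 (SE 0.36), with a limma adjusted p of 0.873. Leaving out sham replicate 1 gave 0.59, whereas leaving out BDL replicate 12 gave 0.23.

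Cxcl10 would have passed the filter on its BDL signals alone, so its p-values are descriptions. The unadjusted p of Cxcl10 depended on the scaling, the floor and single arrays. It was 0.0180 after quantile normalization, 0.0400 with equal array medians and 0.0411 with a 10th-percentile floor, and the log2 differences were 1.27, 1.10 and 1.71, while limma's adjusted p was 0.712 to 0.852. Without BDL replicate 12 the difference was 1.48, with an unadjusted p of 0.0099, and without sham replicate 1 it was 1.26, with an unadjusted p of 0.0509 by limma. Without BDL replicate 1 it was 0.53, with an unadjusted p of 0.298.

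Cxcr3 itself had signals of 107, 520.5 and 161.1 in BDL mice, against 503, 425.4 and 309.3 in sham mice, with overlapping groups and a log2 difference of -0.79 (SE 0.49). Of 15 tested interferon gamma targets, 10 had a positive difference, limma counted 0 in either direction at an unadjusted p under 0.05, and the median was 0.07, or 0.24 without sham replicate 1. Ifng was under the floor on all arrays. Among the targets, Irf1, an interferon-induced transcription factor, had signals of 2034, 666.7 and 1336 in BDL mice, against 665.7, 151.9 and 1342 in sham mice, a log2 difference of 1.24 (SE 0.75). Iigp1, an interferon-induced GTPase, differed by 0.61 (SE 0.37) and the guanylate-binding protein Gbp3 by -0.40 (SE 0.36), which was -0.16 without sham replicate 1. Of 14 T, NK and B cell markers on the array, 8 were tested and 2 had a positive difference, with a median of -0.52 that was -0.03 without sham replicate 1. By limma's unadjusted p under 0.05, 0 were counted as higher and 1 as lower. The 1 lower was Ms4a1, the B cell antigen CD20, with signals of 740.2, 951.1 and 891.5 in BDL mice, against 1461.6, 1533.8 and 1399.4 in sham mice. Its groups were apart, with a log2 difference of -0.77 (SE 0.27), a limma unadjusted p of 0.0206 and an adjusted p of 0.832, and without sham replicate 1 the unadjusted p was 0.0272. Prf1, the pore-forming protein perforin, differed by -0.88 (SE 0.42), and by -0.53 without sham replicate 1. The summed signals of the list were 3274, 3680 and 3376 in BDL mice, against 9672, 5382 and 3342 in sham mice, highest on sham replicate 1. Cd8a was under the floor on all arrays and Cd3d, Cd3e, Cd8b1, Cd2 and Gzma on all but 1 or 2 of them.

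Cxcl12, or SDF-1, is made constitutively by stromal and endothelial cells and holds progenitors and lymphocytes through Cxcr4. With probe set 100112_at its signals were 3662, 2195 and 3194 in BDL replicates 1, 12 and 3, against 5219, 1625 and 4317 in sham replicates 1, 2 and 3. With 160511_at they were 2168, 557.5 and 1441 in BDL mice, against 2335, 444.9 and 1645 in sham mice. With 162234_f_at they were 659.6, 311.9 and 792.8 in BDL mice, against 2133, 345.7 and 1069 in sham mice. In all 3 probe sets BDL replicate 12 and sham replicate 2 were the 2 lowest arrays and sham replicate 1 the highest, and the groups overlapped. The log2 differences were -0.17 (SE 0.47), 0.01 (SE 0.68) and -0.76 (SE 0.65), with limma adjusted p of 0.958, 0.999 and 0.864. Without sham replicate 2 they were -0.69, -0.70 and -1.47, and without sham replicate 1 they were 0.16, 0.49 and -0.15. Its receptors Cxcr4 and Ackr3 were each above the floor on 1 array, sham replicate 1, and were not tested.

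The array pattern of Cxcl12 was shared by Cxcl1. For all 5 probe sets of these genes the 2 lowest signals were those of sham replicate 2 and BDL replicate 12, 1 mouse of each group. Across all tested probe sets, the deviations of these 2 arrays from their group means correlated at 0.289, the highest of the 9 pairs of a BDL and a sham array. The part of that general likeness in the chemokine pattern was not tested.

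**Figure D3:**
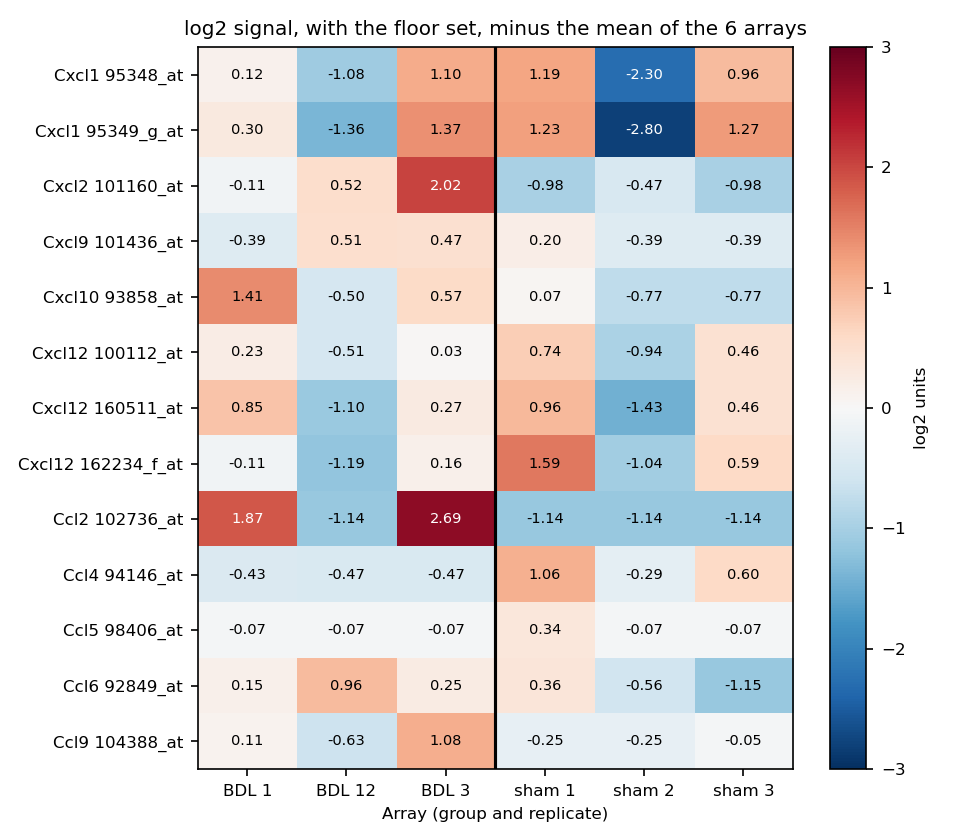
log2 signal of each chemokine probe set on each array, with the floor set, minus its mean over the 6 arrays, with BDL arrays left of the black line and sham arrays right of it. Red is above and blue below the mean of the probe set, in log2 units. The Cxcl1 and Cxcl12 probe sets are blue on BDL replicate 12 and sham replicate 2, whereas Ccl2 is red on BDL replicates 1 and 3 alone.

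Ccl2, or MCP-1, draws monocytes from the blood through Ccr2. Its signals were 1229.5, 30.2 and 2178 in BDL replicates 1, 12 and 3, against 147.1, 51.8 and 15.6 in sham replicates 1, 2 and 3. BDL replicates 1 and 3 were several times the highest sham signal, BDL replicate 12 was below 2 of 3 sham signals, and all sham signals were under the floor. Set against the floor, the geometric mean of the BDL signals, 432.4, was at least 2.83-fold higher. Without BDL replicate 12 it was at least 10.7-fold higher. Dropping BDL replicate 3 instead lowered the log2 difference on floored signals from 2.28 to 1.505, and dropping BDL replicate 1 lowered it to 1.917. With BDL replicate 12 dropped, that difference rose to 3.42. The probe set entered no test in the reported setting because 2 arrays were above the floor. With no filter, limma gave a log2 difference of 2.28 on floored signals with an unadjusted p of 0.0931 and an adjusted p of 0.814. With the floor at the 10th percentile these were 2.82, 0.0609 and 0.852.

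The receptor Ccr2 was above the floor on BDL replicate 3 alone, with signals of 49.6, 50.7 and 468 in BDL mice, against 103.4, 73.4 and 27.5 in sham mice. Ccl7, another Ccr2 ligand, had signals of 132.7, 182.1 and 226.4 in BDL mice, against 182.4, 46.4 and 17.9 in sham mice, with a log2 difference of 0.19 (SE 0.29). Of 17 monocyte and macrophage markers on the array, Ccr2 among them, 14 were tested and 11 of these differed positively. By limma's unadjusted p under 0.05, 1 was counted as higher and 0 as lower, and the median was 0.52. Their summed signals were 18127, 12146 and 20122 in BDL replicates 1, 12 and 3, against 15845, 12609 and 8265 in sham replicates 1, 2 and 3. BDL replicate 12, the BDL mouse with a Ccl2 signal under the floor, also had the lowest sum of the BDL mice. Tyrobp, a signalling adaptor of myeloid receptors, had signals of 533.8, 424.8 and 986.2 in BDL mice, against 401.9, 370 and 142.6 in sham mice, and a log2 difference of 1.10 (SE 0.47). C1qa, a complement component made by macrophages, differed by 0.99 (SE 0.47). Ccr2, Fcer1g and Marco were above the floor on at most 2 arrays. The part of these markers in the Ccl2 values was not tested.

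Markers of the other liver cells that can make chemokines were also counted. Of 16 endothelial and stellate cell markers on the array, 14 were tested, 12 of these differed positively and the median was 0.61, or 0.50 with 10 positive without sham replicate 1. By limma's unadjusted p under 0.05, 4 were counted as higher and 0 as lower, and 2 as higher without sham replicate 1. Of all tested probe sets, 3.4% were higher and 2.39% lower by that measure. Without sham replicate 1 it was 4.51% in either direction. The counts of the other lists have the same background. The summed signals of the endothelial and stellate markers were 18276, 19294 and 15809 in BDL mice, against 9476, 16997 and 8718 in sham mice, so that sham replicate 2 lay among the BDL mice. Fcgr2b, an Fc receptor of liver sinusoidal endothelium that B cells and macrophages also carry, had signals of 604.4, 522.2 and 455.8 in BDL mice, against 115.5, 289.5 and 223.4 in sham mice, with the groups apart and a log2 difference of 1.29 (SE 0.33). Acta2, the smooth muscle actin of activated stellate cells, had signals of 485.7, 209.4 and 472.9 in BDL mice, against 192, 73.3 and 23.6 in sham mice, with the groups apart and a log2 difference of 1.14 (SE 0.38). Acta2 would have passed the filter on its BDL signals alone, and sham replicates 2 and 3 were under the floor. Its SE and its place in the count are thus descriptions. The other 2 counted as higher were Reln and Cdh5, in which the groups overlapped. The log2 difference of Reln was 1.72 (SE 0.71), and 1.04 without sham replicate 1. Hand2 and Pdgfrb were above the floor on 1 array each.

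Of 7 bile duct cell markers on the array, 4 were tested and 3 differed positively, with a median of 0.71. By limma's unadjusted p under 0.05, 1 was counted as higher and 0 as lower. It was Anxa3, a calcium-binding annexin, with signals of 381, 404.5 and 389.4 in BDL mice, against 136.7, 72.9 and 63 in sham mice. All its sham signals were under the floor and became equal to it, so that their spread was lost. Anxa3 thus passed the filter on its BDL signals alone. Limma gave an unadjusted p of 0.000666 and an adjusted p of 0.667, which are descriptions for this reason. The water channel Aqp1 differed by 1.10 (SE 0.73), Krt19 by 0.32 (SE 0.35) and Cftr by -0.21 (SE 0.30). Without sham replicate 1, Krt19 differed by 0.50 and Cftr by 0.002. The markers Cldn7, Epcam and Krt7 were above the floor on at most 1 array. The summed signals of the list were 2241, 2616 and 1962 in BDL mice, against 1926, 2388 and 896 in sham mice. Of 12 hepatocyte markers, all tested, 6 had a positive difference and the median was -0.05, or -0.12 with 4 positive without sham replicate 1. By limma's unadjusted p under 0.05, 0 were counted as higher and 1 as lower. Ttr, the thyroxine carrier transthyretin, was the 1 lower, at -1.25 (SE 0.36), and G6pc, the glucose-releasing phosphatase, had signals of 16655.8, 18910.3 and 4172.7 in BDL mice, against 23180.9, 23157.3 and 19645.8 in sham mice. No gene of these lists passed the adjusted threshold, and their part in the chemokine values was not tested.

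Ccl4 and Ccl5 attract T cells, natural killer cells and monocytes. Ccl4, or MIP-1 beta, had signals of 156.2, 113 and 69.1 in BDL replicates 1, 12 and 3, against 439.2, 172.7 and 320.9 in sham replicates 1, 2 and 3. All BDL signals lay below all sham signals, and BDL replicates 12 and 3 were under the floor. The log2 difference was -0.91 (SE 0.38, 95% interval -1.77 to -0.06), or 1.88-fold lower in BDL on floored signals, with a limma unadjusted p of 0.0389 and an adjusted p of 0.832. Without sham replicate 1 it was -0.61, with an unadjusted p of 0.114. Leaving out any other array except sham replicate 2 also put limma's unadjusted p above 0.05, at 0.0794 to 0.0892, and without sham replicate 2 the difference was -1.29, with an unadjusted p of 0.00509. Ccl4 would have passed the filter on its sham signals alone, and the floor left its BDL signals a log2 SD of 0.019. Its interval and p-values are thus descriptions. Ccl5, or RANTES, had signals of 47.8, 70.5 and 83.5 in BDL mice, against 203.5, 58.1 and 54.3 in sham mice. Sham replicate 1 was the 1 array above the floor, and no fold is given.

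Ccl6 and Ccl9 belong to a group of mouse CC chemokines that act through Ccr1 and are made by macrophages and other myeloid cells. Ccl6 had signals of 512.3, 899.5 and 548.6 in BDL replicates 1, 12 and 3, against 592.9, 312.6 and 209.2 in sham replicates 1, 2 and 3. BDL replicate 12, which was low for Ccl2, was the highest of all mice for Ccl6, and the groups overlapped through sham replicate 1. The log2 difference was 0.90 (SE 0.43), or 1.87-fold, with a limma unadjusted p of 0.0681 and an adjusted p of 0.832. Without sham replicate 1 the groups no longer overlapped and the difference was 1.31, with an unadjusted p of 0.00933 and an adjusted p of 0.865 from limma. Without sham replicate 3 it was 0.56, with an unadjusted p of 0.225, and without BDL replicate 12 it was 0.65, with an unadjusted p of 0.211.

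Ccl9, or MIP-1 gamma, had signals of 10019.9, 6007 and 19706 in BDL replicates 1, 12 and 3, against 7834, 7809 and 8972 in sham replicates 1, 2 and 3. The sham mice lay close together, with an SD of log2 signals of 0.11, whereas the BDL mice spread to both sides of them, with an SD of 0.86. The log2 difference was 0.37 (SE 0.43), with a limma adjusted p of 0.894, and it was -0.08 without BDL replicate 3. The shared receptor Ccr1 had signals of 101.8, 229.6 and 340.1 in BDL mice, against 168.7, 91.6 and 50.7 in sham mice, with a log2 difference of 0.53 (SE 0.35).

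Of 28 other chemokines listed, 15 had a named probe set on the array and 9 were tested, with each gene read from its brightest probe set. Of these 4 had a positive and 5 a negative difference, 0 were at an unadjusted p under 0.05 in either direction by limma, and the median was -0.17, against -0.01 for all tested probe sets. The median turned to 0.06 without sham replicate 1, with 5 of 9 positive, against 0.04 for all tested probe sets without that array. The medians of the other lists without sham replicate 1 have the same background. Cxcl14, a CXC chemokine made in epithelia, had signals of 227.4, 414.8 and 392.5 in BDL mice, against 181.7, 76.2 and 281.9 in sham mice, with a log2 difference of 0.75 (SE 0.37). Ccl22, a ligand of Ccr4, had signals of 825.1, 779.8 and 583.4 in BDL mice, against 2193, 1231.5 and 702.4 in sham mice, with a log2 difference of -0.78 (SE 0.43) that was -0.37 without sham replicate 1. Xcl1, the platelet factor Pf4 and Ccl1 differed by -0.44 (SE 0.32), -0.63 (SE 0.52) and -0.46 (SE 0.39), with overlapping groups, and Pf4 and Ccl1 by -0.24 and -0.22 without sham replicate 1.

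Of 20 chemokine receptors on the array, 12 were tested, 6 had a positive and 6 a negative difference, and the median was -0.001. The median was 0.18 without sham replicate 1, with 9 of 12 positive and 0 at an unadjusted p under 0.05 by limma. With all arrays and by limma's unadjusted p under 0.05, 0 were counted as higher and 1 as lower. The 1 lower was Cx3cr1, the fractalkine receptor of patrolling monocytes and other myeloid cells. Its signals were 251.8, 767.1 and 596.7 in BDL mice, against 2779, 1034 and 726.1 in sham mice. BDL replicate 12 overlapped with sham replicate 3, and the log2 difference was -1.39 (SE 0.58), with a limma unadjusted p of 0.0400 and an adjusted p of 0.832. Without sham replicate 1 it was -0.83, with an unadjusted p of 0.142. Ccr9 differed by -0.62 (SE 0.40), Ccr1l1 by 0.47 (SE 0.61), or 0.96 without sham replicate 1, and Ccr3 by 0.21 (SE 0.28). No gene of either list passed the adjusted threshold. The receptors Cxcr2, Ccr2, Cxcr4 and Ackr3 were named after their values were seen.

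**Figure D4:**
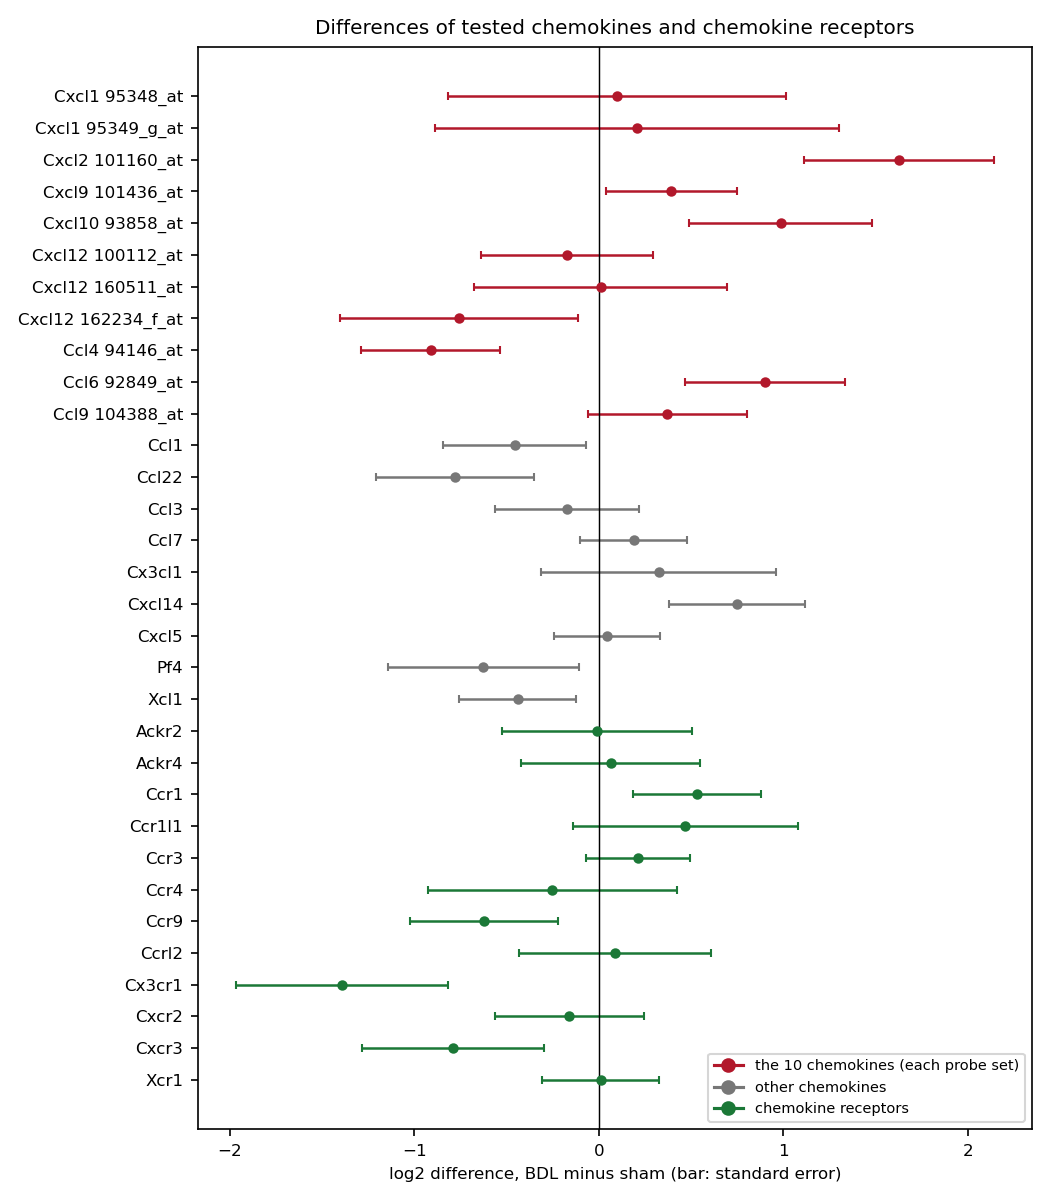
log2 difference, BDL minus sham, of the 11 tested chemokine probe sets (red), 9 other chemokines (grey) and 12 chemokine receptors (green), with bars of 1 standard error from limma. Points right of 0 are higher in BDL. Cxcl2 lies farthest to the right at 1.63 and the receptor Cx3cr1 farthest to the left at -1.39, and none passed the adjusted threshold.

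A further list held 32 genes of cytokines, Toll-like receptors, the NF-kappaB pathway and adhesion molecules. Its Toll-like receptors, Tlr2 and Tlr4, had no named probe set. Of the list, 28 genes had a named probe set and 18 were tested. Of these 13 differed positively, with a median of 0.27. Limma's unadjusted p was under 0.05 for 3 with BDL above sham and for 0 with BDL below, and its adjusted p for 0. Cd14, the co-receptor for bacterial lipopolysaccharide, had signals of 1873, 29692 and 15816 in BDL replicates 1, 12 and 3, against 717, 4568 and 1176 in sham replicates 1, 2 and 3. BDL replicate 1 lay below sham replicate 2, and the log2 difference was 2.61 (SE 1.02). Tnfaip2, a gene induced by tumour necrosis factor, had signals of 1592, 1545 and 1136 in BDL mice, against 514.3, 834.8 and 1034 in sham mice, with the groups apart and a log2 difference of 0.88 (SE 0.35). Icam1, an adhesion molecule for leukocytes, had signals of 1013.5, 236.9 and 1303.5 in BDL replicates 1, 12 and 3, against 200.4, 290.2 and 314.7 in sham replicates 1, 2 and 3. Icam1 was thus high in the same 2 BDL mice as Ccl2, and in BDL replicate 12 it was within the sham range. Its log2 difference was 1.37 (SE 0.60). Limma gave these 3 genes unadjusted p of 0.0311, 0.0324 and 0.0496 and adjusted p of 0.832 each, and without sham replicate 1 limma put none of the list at an unadjusted p under 0.05. Vcam1, another adhesion molecule, differed by 0.74 (SE 0.44), the inhibitor Nfkbib by 0.73 (SE 0.54) and the subunit Nfkb2 by -0.50 (SE 0.40). Without sham replicate 1, whose Nfkbib signal of 613.9 was far below the other 5 arrays, Nfkbib differed by 0.07 and Nfkb2 by -0.20. Of the inducing cytokines, Il6 was under the floor on all arrays and Tnf and Il1b were above it on 2 each.

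Genes with the most similar pattern over the 6 arrays were sought for the 7 probe sets above the floor on every array, among 6896 other named genes. For Cxcl1 95349_g_at these were Lcp1, a leukocyte actin-bundling protein, Gdap10 and Rsrp1, with Pearson r of 0.990, 0.986 and 0.980. For Cxcl1 95348_at they were Dvl2, Lcp1 and Gdap10 (r = 0.983, 0.980 and 0.977). For Cxcl12 they were Dock5, Ldah and Pirb with 100112_at (0.990, 0.986 and 0.983), Chordc1, Rreb1 and Nr1h3 with 160511_at (0.992, 0.992 and 0.986), and Tmub2, Tpgs2 and Pnpt1 with 162234_f_at (0.992, 0.987 and 0.986). The probe sets of Cxcl12 thus named 3 different sets of genes. For Ccl6 they were Map4k4, Gja1 and Aldh3a1 (0.991, 0.972 and 0.971), and for Ccl9 they were Il1rn, the interleukin-1 receptor antagonist, Cops5 and Itfg1 (0.967, 0.963 and 0.961). These genes were picked as the 3 highest of 6896 for each probe set, over 6 arrays. At the lower mark of 0.9, between 0.479% and 1.67% of the genes had a higher r with a given probe set. The r values describe these arrays, which also share scaling and signal level.

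**Figure D5:**
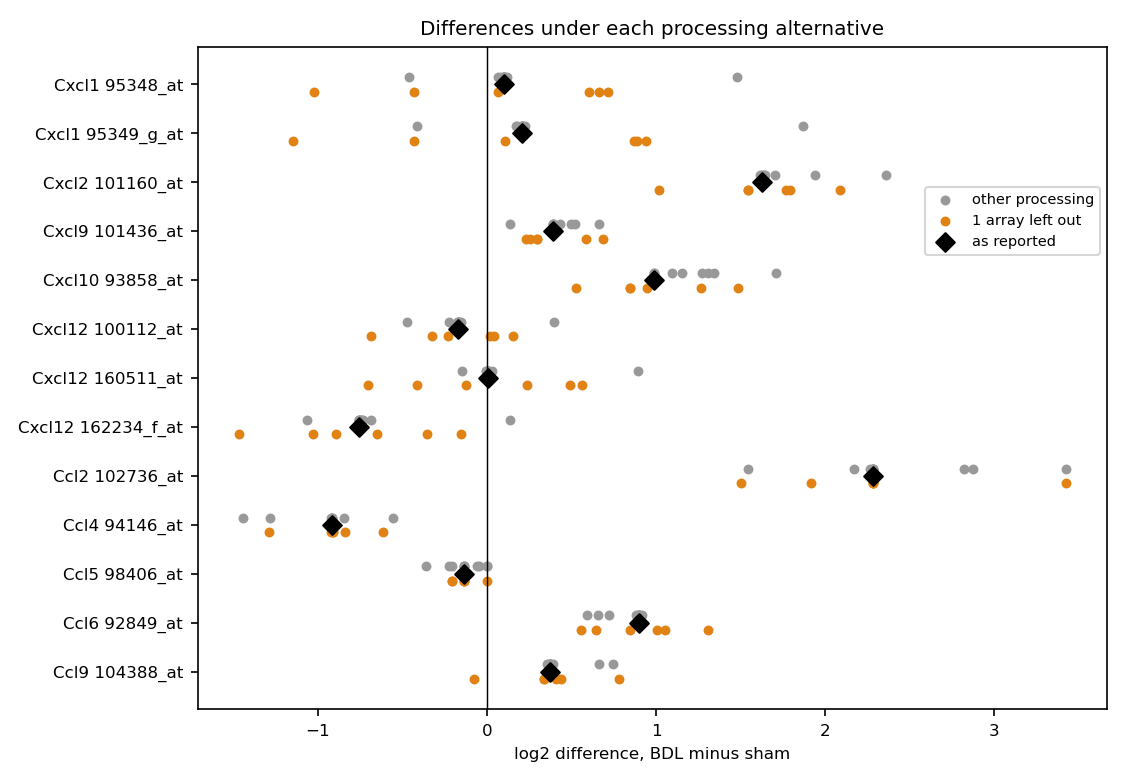
log2 difference, BDL minus sham, of each chemokine probe set as reported (black diamonds), with 1 array left out (orange) and under other processing (grey). The zero line divides higher from lower in BDL. All Cxcl2, Cxcl9, Cxcl10, Ccl2 and Ccl6 points lie right of 0 and all Ccl4 points left of it, whereas those of Cxcl1 and Cxcl12 lie on both sides.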

How the data were processed

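Liver RNA of 3 BDL and 3 sham mice was hybridized to Affymetrix U74Av2 arrays with 20 µg cRNA, per the labels and the design text of the series. The deposited intensity values are linear, with 1 value for each probe set on each array. The authors made them with GeneChip expression software 3.1 and version 4.0 of MicroArray Suite, per the design text; for settings and background steps, the sources used here give nothing. Because the 2% trimmed mean was alike on all arrays, the values were kept as scaled. Detection calls were not used here.

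Signals under 152.7 were set to it, log2 was taken, and 9542 of 12422 probe sets above it on at least 3 of 6 arrays were tested with limma 3.58.1 (lmFit and eBayes, R 4.3.3, no covariates, Benjamini-Hochberg over all tested). SE is limma's moderated standard error. The fit was tried on simulated data without the floor and filter, with changes planted in bright probe sets alone. That trial did not cover dim probe sets. Another 66 control probe sets were left out. Gene names came from the platform annotation, with symbols brought up to date through RefSeq gene identifiers (GRCm38.p6); 396 probe sets with several symbols and 1193 with none were not named.

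The members and gene lists were chosen with earlier results of these data known. Named were all members, up to 6 genes of each pathway list and up to 2 of each cell marker list with the smallest p, and for each member probe set above the floor on all arrays the 3 genes of highest correlation; other names were chosen after their values were seen. Alternatives covered scaling, floor, filter, variance model, each array left out and the replicate number as a block. The arrays were of separate mice and the sources used here name no batch.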

Additional observations from a re-analysis of the deposited data

How the results depend on the processing

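The log2 differences of Cxcl2, Cxcl9, Cxcl10, Ccl2, Ccl4 and Ccl6 kept their sign under every alternative that gave them a value, and no member probe set passed the adjusted threshold in any. Cxcl2 was at an unadjusted p under 0.05 in each of the 14 alternatives in which it was tested, with differences from 1.02 to 2.36 and limma adjusted p from 0.382 to 1. Because Cxcl2 would have passed the reported filter on its BDL signals alone and the alternatives reuse the same arrays, these p-values are descriptions. The count of probe sets past the adjusted threshold was 0 throughout, except for 3 with no filter on low values. The count of member probe sets at an unadjusted p under 0.05, 2 as reported, was 4 after quantile normalization and with equal array medians, 0 with the floor at the 40th percentile and with the filter at the 50th percentile, where Cxcl2 was not tested, 1 with no filter, and 1 to 3 with 1 array left out. Their median difference was 0.89 with array weights, against 0.20 as reported, and -0.21 to 0.65 with 1 array left out. The cause of these moves was not tested.

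Cxcl12 turned sign under several settings. With array weights, 100112_at was 0.40 and 162234_f_at 0.14. The difference of 160511_at was -0.003 after quantile normalization and -0.004 with a constant of 100 added. Leaving out 1 array gave -0.69 to 0.16, -0.70 to 0.56 and -1.47 to -0.15 for 100112_at, 160511_at and 162234_f_at. It gave -1.03 to 0.72 for Cxcl1 95348_at, -1.14 to 0.94 for 95349_g_at and -0.078 to 0.78 for Ccl9.

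The groups share the replicate numbers 1 and 3. Deviations from the group means correlated at 0.209 and 0.246 for the same-numbered arrays and at -0.211 to 0.289 for the others, and the labels do not say that a number marks a shared litter or day. With the replicate number as a block, 0 probe sets passed the adjusted threshold, 3 member probe sets were at an unadjusted p under 0.05 (Cxcl2, Ccl4 and Cxcl10, the last at 1.35 with an unadjusted p of 0.0118), Ccl6 was at 0.59 with an unadjusted p of 0.281, the members' median difference was -0.15, and the differences were -0.46 and -0.41 for Cxcl1 95348_at and 95349_g_at and -0.15 for Cxcl12 160511_at. Signals near the floor, as for Ccl2, Ccl4, Ccl5 and Cxcl9, limit what can be said of their size.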
